A study of Homo sapiens with 14 samples.

Results

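The ISG15 conjugation system is a small enzyme cascade that attaches the protein ISG15 to other proteins and removes it again. The 5 genes described here were ISG15 itself, UBA7, UBE2L6, HERC5 and USP18, taken with every probe set of the HG-U133 Plus 2.0 array that is annotated to them. That gave 5 of 21358 annotated genes and 6 of the 54613 probe sets analysed, 2 of them for UBA7 and 1 for each other gene. None of the 6 was left out by a filter, since no filter on low values was used in the main analysis.

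ISG15 is a ubiquitin-like modifier with a pair of ubiquitin-like domains, made in large amounts when cells sense type I interferon. UBA7 is its activating enzyme, UBE2L6 the main conjugating enzyme and HERC5 the main human ligase, which sits on ribosomes and marks newly made proteins. USP18 is the protease that cuts ISG15 from its targets, and by binding the interferon receptor subunit IFNAR2 it also dampens the signalling that switches all 5 genes on. ISG15 has been reported at raised levels in many breast tumours.

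The RNA came from LY2, an MCF-7 derivative (MCF-7 is an estrogen receptor-positive breast cancer line) that grows in the presence of antiestrogens. The cells had been propagated with 10 nM 4-hydroxytamoxifen and kept for 72 h without it in phenol red-free medium with charcoal-stripped serum. They were transfected with 40 nM of an siRNA against SRC-1 (the steroid receptor coactivator encoded by NCOA1) or of a scrambled control siRNA, and 24 h later received 100 nM 4-hydroxytamoxifen or the ethanol vehicle for 2 h. The 14 arrays form 4 groups: control siRNA untreated (n = 4), control siRNA with tamoxifen (n = 4), SRC1 siRNA untreated (n = 4) and SRC1 siRNA with tamoxifen (n = 2, replicate numbers 1 and 3). All groups thus share 1 resistant cell line, transfection with an siRNA, and earlier growth in the drug, and "untreated" means vehicle. The labels call the replicates biological and say nothing more of separate cultures, so the p-values measure the spread between these arrays. Levels are log2 signals, so a difference of 1 is a doubling.

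Promoter sequences were examined for a shared element, apart from the measurements. The interferon-stimulated response element, the DNA site of interferon-regulated factors, has as its core a pair of copies of the letters GAAA with 2 bases between them. The 250 bases before the start of each gene were searched on both strands for these letters (TTTC, 2 bases and TTTC on the other strand, and matches could overlap) in the promoter table from RefSeq, build GRCh38.p14. The table held 3 of the 5 genes. The windows of ISG15 at chr1:1013247-1013496 and of HERC5 at chr4:88456869-88457118, both on the plus strand, are shown because both held several matches, in capitals.
ISG15: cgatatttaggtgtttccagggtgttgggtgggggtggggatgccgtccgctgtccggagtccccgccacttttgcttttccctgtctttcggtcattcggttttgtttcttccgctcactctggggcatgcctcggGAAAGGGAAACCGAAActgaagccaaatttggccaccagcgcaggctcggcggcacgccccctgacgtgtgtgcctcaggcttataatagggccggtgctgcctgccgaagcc
HERC5: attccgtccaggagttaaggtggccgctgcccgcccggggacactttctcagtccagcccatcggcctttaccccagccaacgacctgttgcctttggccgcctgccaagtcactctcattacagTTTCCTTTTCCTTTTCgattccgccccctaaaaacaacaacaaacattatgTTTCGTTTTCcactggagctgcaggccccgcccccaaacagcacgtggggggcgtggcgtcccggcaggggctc
In ISG15 the 2 matches overlapped, at -113 to -104 and -107 to -98 from the start, and read along the plus strand. HERC5 had 3 matches on the opposite strand, 2 of them overlapping at -125 to -116 and -119 to -110 and the other at -74 to -65. Both UBE2L6 windows, at chr11:57567936-57568185 and chr11:57567673-57567922 on the minus strand, had 0 matches, and so had the window of HERC6, the neighbour of HERC5, at chr4:88378602-88378851. A match was held by 1061 of all 35116 windows (3.02%), and 79 of them (0.225% of all) held at least 2 matches. UBA7 and USP18 had no entry.

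The targeted gene was lower in the SRC1 siRNA arrays. Over its 4 probe sets the mean NCOA1 signal was 7.70 ± 0.36 (SD, n = 4) against 9.00 ± 0.25 (SD, n = 4) without tamoxifen, 59.4% lower on the linear scale (p = 0.0286 in a two-sided exact permutation test, which can go no lower with 4 against 4). With tamoxifen it was 7.74 ± 0.25 (SD, n = 2) against 9.06 ± 0.18 (SD, n = 4), 60.0% lower (p = 0.0667 in the same exact test, which can go no lower with 2 against 4). Array medians lay between 3.44 and 3.51. All 8 luminal epithelial markers measured (ESR1, GATA3, FOXA1, EPCAM, CDH1, KRT8, KRT18 and KRT19) were above the median of all probe sets, with array means of 12.28 to 12.39. The 8 immune markers measured, among them PTPRC (CD45), CD3E and CD14, had array means of 1.99 to 2.29, and 0 of them were above that median in 3 groups and 1 in SRC1 siRNA with tamoxifen. Of 6 fibroblast markers 1, COL1A1, was above it. The 4 endothelial markers had array means of 2.60 to 2.68 and 2.56 to 2.67 in control siRNA without and with tamoxifen, and of 2.71 to 2.92 and 2.43 to 2.55 in SRC1 siRNA. With knockdown in untreated cells PECAM1 was higher (0.73 ± 0.19, SE; limma adjusted p = 0.0255), while VWF differed by -0.20 and CDH5 by -0.02 without passing. Of the luminal markers CDH1 was lower there (-0.27 ± 0.06, SE; limma adjusted p = 0.00864) and KRT8 higher (0.31 ± 0.09, SE; limma adjusted p = 0.0351). Neither luminal marker passed once replicate number was fitted too (0.0588 and 0.122, limma), nor did PECAM1 (0.0862, limma). With tamoxifen ITGAM, an immune marker, was higher (0.86 ± 0.23, SE; limma adjusted p = 0.0253) and CDH5 lower (-0.36 ± 0.06, SE; limma adjusted p = 0.00273). Once number was fitted there, 0 immune markers passed as higher and 1 endothelial marker as lower. The part of these markers in the results was not tested. Over all probe sets, arrays with the same replicate number deviated in opposite directions from their group means, with correlations between -0.585 and -0.0421 over 18 pairs of arrays. The replicate numbers thus differed less from each other than unrelated arrays would. That pattern is what values with differences between numbers already removed would show, and whether this was done is not stated in the sources used here. In that case the knockdown SEs and p-values fitted without replicate number are too small, those of ISG15 and USP18 included. With number fitted, the knockdown SE in untreated cells was 0.29 for ISG15 and 0.56 for HERC5. Their same-numbered knockdown differences ran from 0.11 to 2.35 and from 1.67 to 5.34. A term shared by both siRNAs cannot take up such a spread, so knockdown SEs with number fitted can be too small as well. For tamoxifen this need not hold: in control siRNA cells HERC5 had an SE of 0.52, while its same-numbered differences spanned only 0.22 to 0.39. Signals of ISG15, UBE2L6, HERC5 and USP18 moved together within an siRNA, lowest at number 4 in both control groups. In SRC1 siRNA untreated they were highest at number 4.

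SRC1 knockdown in untreated cells was accompanied by higher signals of 4 of the 5 genes: HERC5, UBA7, ISG15 and USP18 passed the test, and UBE2L6 did not. When replicate number was added to the fit, HERC5 and UBA7 passed, beside 3.94% of all probe sets. The background was high, since 10.4% of all probe sets passed in either direction while 4.99% were higher and 5.36% lower (limma, adjusted p under 0.05). Of the genes that passed, HERC5 moved most, 9.18-fold, followed by UBA7 with 2.65-fold and 2.71-fold for its probe sets, ISG15 with 2.12-fold and USP18 with 1.80-fold. The median log2 change of the 5 genes was 1.08, beside -0.00 for all probe sets. Cultures were measured in bulk, so more RNA per cell and more cells carrying it cannot be told apart. Knockdown names the contrast of an siRNA against SRC-1 with a scrambled siRNA. Loss of SRC-1 and other effects of that siRNA cannot be told apart in this design.

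The modifier ISG15 (205483_s_at) had signals of 12.25, 12.50, 12.81 and 11.80 in control siRNA untreated and 12.40, 12.55, 12.80 and 11.84 in control siRNA with tamoxifen, for replicates 1 to 4 in order. In SRC1 siRNA untreated it read 13.37, 13.25, 12.92 and 14.15, and in SRC1 siRNA with tamoxifen 13.34 and 13.15 (replicates 1 and 3). Every SRC1 siRNA array was above every control siRNA array, with the closest approach 0.11 apart, and the array furthest up was SRC1 siRNA untreated replicate 4 while the pair furthest down were the replicate 4 controls. The group means without tamoxifen were 13.42 ± 0.52 and 12.34 ± 0.43 (SD, n = 4 each), a log2 change of 1.08 ± 0.27 (SE; limma adjusted p = 0.0212). Once replicate number was fitted too, the adjusted p was 0.0708 (limma; 0.0159 to 0.266 over all alternatives). The call also ended without control siRNA untreated replicate 1 (limma adjusted p = 0.0519) or replicate 4 (0.0613). It ended without all arrays of number 1 (0.121) or of number 2 (0.0851), and without all arrays of number 4 the change was 0.66, still past the threshold (limma adjusted p = 0.0314).

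UBA7, the activating enzyme and the first step of the cascade, was measured by 1294_at and 203281_s_at, both annotated also to MIR5193, a microRNA gene lying within UBA7. The brighter, 1294_at, read 4.04, 4.43, 4.63 and 4.38 in control siRNA untreated and 3.99, 4.16, 4.56 and 4.57 with tamoxifen. It read 6.22, 5.97, 5.71 and 5.21 in SRC1 siRNA untreated and 6.31 and 5.79 in SRC1 siRNA with tamoxifen. The lowest SRC1 siRNA array stood 0.58 above the highest control array, and the SRC1 siRNA array furthest down was replicate 4, the one furthest up for ISG15. The log2 change without tamoxifen was 1.41 ± 0.21 (SE, 4 against 4 arrays; limma adjusted p = 0.00147, and 0.0111 once replicate number was fitted too). The other probe set, 203281_s_at, read 3.11, 3.97, 4.08 and 3.93 in control siRNA untreated and 3.70, 3.65, 3.87 and 3.82 with tamoxifen, against 5.85, 5.30, 5.14 and 4.54 in SRC1 siRNA untreated and 5.91 and 5.75 with tamoxifen. Again no array of one siRNA reached those of the other, with 0.47 between them, and SRC1 siRNA untreated replicate 4 was once more the lowest of its group. Its log2 change was 1.44 ± 0.24 (SE; limma adjusted p = 0.00263). The control levels of both lie near the median of all probe-set means, 3.47, where differences in signal can be compressed. Leaving out any 1 array kept both calls. Restricting the fit to replicate numbers 1 and 3 took 1294_at to a limma adjusted p of 0.0530, and pairing same-numbered arrays of the compared groups alone took 203281_s_at to 0.0670 (ranges over all alternatives 0.000295 to 0.0530 and 0.000506 to 0.0670).

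UBE2L6, the conjugating enzyme that takes ISG15 from UBA7, read 11.12, 11.16, 11.26 and 10.00 in control siRNA untreated and 10.92, 11.28, 11.31 and 10.59 in control siRNA with tamoxifen (201649_at). In SRC1 siRNA untreated it read 11.67, 11.49, 11.42 and 12.50, and with tamoxifen 11.58 and 11.51. Most arrays were bunched, replicate 4 was far down in both control groups and far up under SRC1 siRNA, and the siRNAs were still separated by 0.11. The change without tamoxifen was 0.88 ± 0.29 (SE) on the log2 scale, or 1.85-fold, and did not pass (limma adjusted p = 0.0674). No alternative brought it past the threshold, with adjusted p from 0.0517 to 0.310 (limma). Without the number 4 arrays its change was 0.35 ± 0.11 (SE; limma adjusted p = 0.0784).

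HERC5, the ligase, had the largest difference of the 5 genes and ranked 35 of 54613 probe sets from the highest change without tamoxifen (219863_at). It read 7.66, 8.78, 8.99 and 7.05 in control siRNA untreated and 8.04, 9.08, 9.21 and 7.45 in control siRNA with tamoxifen. In SRC1 siRNA untreated it read 11.57, 10.66, 10.66 and 12.39, and with tamoxifen 11.46 and 10.59. The 2 sets of arrays were 1.38 apart at their closest, and numbers 1 and 4 were low in the controls and high under SRC1 siRNA. The log2 change without tamoxifen was 3.20 ± 0.52 (SE, 4 against 4 arrays; limma adjusted p = 0.00226, and 0.0137 once replicate number was fitted too). Changes of at least 3 upward were found in 0.0769% of probe sets. The call was kept without any 1 array and without any 1 number, where the change ranged from 2.49 to 3.71, the lowest without the number 4 arrays. It was lost only in the fit restricted to numbers 1 and 3 (2.79, limma adjusted p = 0.0719, the highest over its alternatives, the lowest being 0.00179).

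USP18, which removes ISG15 and restrains the interferon receptor, read 11.04, 11.48, 11.61 and 10.65 in control siRNA untreated and 11.32, 11.58, 11.68 and 10.87 in control siRNA with tamoxifen (219211_at). In SRC1 siRNA untreated it read 12.02, 11.74, 11.69 and 12.70, and with tamoxifen 11.99 and 11.68. The siRNAs did not overlap but all but touched, since the lowest SRC1 siRNA array and the highest control array, both of number 3 with tamoxifen, differed by 0.000442. The change without tamoxifen was 0.85 ± 0.25 (SE) on the log2 scale, just past the threshold (limma adjusted p = 0.0483). Once replicate number was fitted too, the adjusted p was 0.126 (limma; 0.0366 to 0.311 over all alternatives). Leaving out 1 array ended the call for 11 of the 14 arrays, with adjusted p of 0.0525 to 0.131 (limma). The 3 arrays whose loss kept it were control siRNA tamoxifen replicate 4, control siRNA untreated replicate 3 and SRC1 siRNA untreated replicate 3. Without all number 4 arrays the change was 0.44 (limma adjusted p = 0.122).

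**Figure D1:**
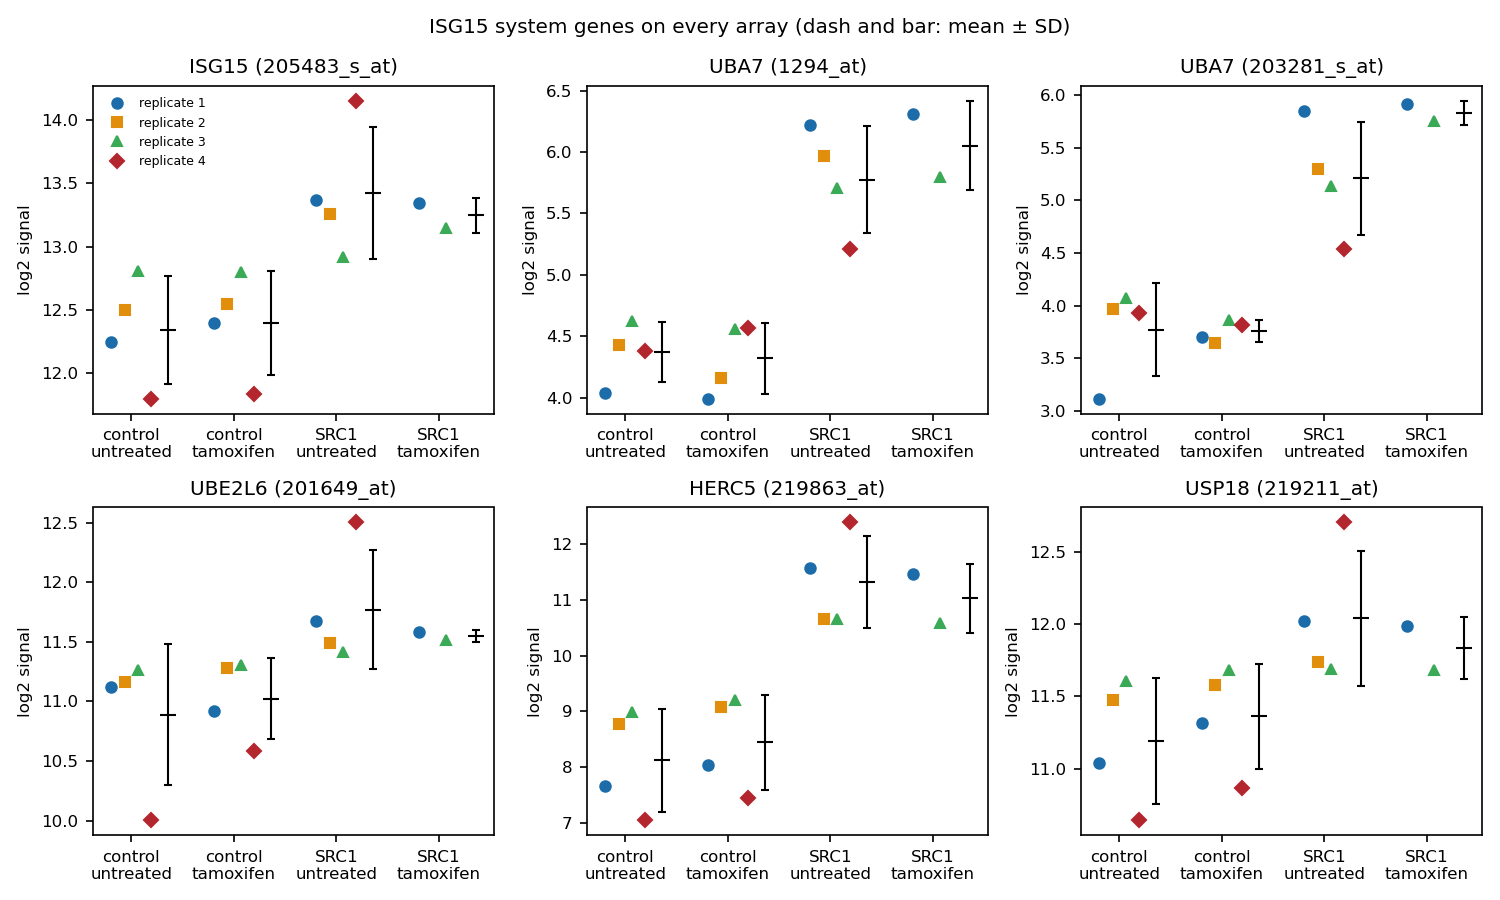
Log2 signal (vertical axis) of the 6 probe sets on all 14 arrays, by group, with points for arrays and bars for group means ± SD (n = 4, 4, 4 and 2). For each probe set the 6 SRC1 siRNA arrays lie above the 8 control siRNA arrays, by 1.38 for HERC5 and by 0.000442 for USP18.

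All 6 probe sets thus had all 6 SRC1 siRNA arrays above all 8 control siRNA arrays, which held upward for 2.80% of all probe sets. If differences between replicate numbers were removed from the values, this separation across numbers could depend on that too, which was not tested. The order of the group levels was alike in the sense that both SRC1 siRNA groups lay above both control groups for every gene. Within the control pair, and within the SRC1 siRNA pair, neighbouring groups differed by less than the SD of the untreated group except for UBA7 203281_s_at under SRC1 siRNA (5.21 ± 0.54 untreated, n = 4, and 5.83 ± 0.11 with tamoxifen, n = 2), whose difference did not pass.

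With tamoxifen present the knockdown difference passed for 2 of the 5 genes, UBA7 and HERC5. Here 13.5% of all probe sets passed in either direction and 5.76% were higher. Centring each array on its median moved the share of calls that were higher from 42.8% to 33.1%. For UBA7 the log2 change was 1.73 ± 0.25 (SE) with 1294_at (limma adjusted p = 0.00169) and 2.08 ± 0.29 (SE) with 203281_s_at (limma adjusted p = 0.00139), or 3.32-fold and 4.22-fold. With number fitted 2.24% of all probe sets passed. Both UBA7 probe sets held once replicate number was fitted too (0.0240 and 0.0217, limma), and 1294_at lost its call in the fit of same-numbered arrays alone (0.0710, limma; range over its alternatives 0.000513 to 0.0710). HERC5 was 5.99-fold higher, a log2 change of 2.58 ± 0.63 (SE; limma adjusted p = 0.0188). That call ended once replicate number was fitted too (0.0935, limma; 0.0140 to 0.257 over all alternatives) and without SRC1 siRNA tamoxifen replicate 1 (2.15, adjusted p = 0.167). It ended without the arrays of number 1 (2.01, limma adjusted p = 0.257) or number 3 (3.27, limma adjusted p = 0.0515).

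The other 3 genes lay higher with tamoxifen too, without passing. ISG15 differed by 0.85 ± 0.33 (SE; limma adjusted p = 0.102), UBE2L6 by 0.53 ± 0.35 (SE; limma adjusted p = 0.345) and USP18 by 0.47 ± 0.31 (SE; limma adjusted p = 0.335). ISG15 passed when the number 4 arrays were left out (0.66, limma adjusted p = 0.0411, the lowest over its alternatives, the highest being 0.440). These estimates rest on 2 SRC1 siRNA arrays, neither of number 4.

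**Figure D2:**
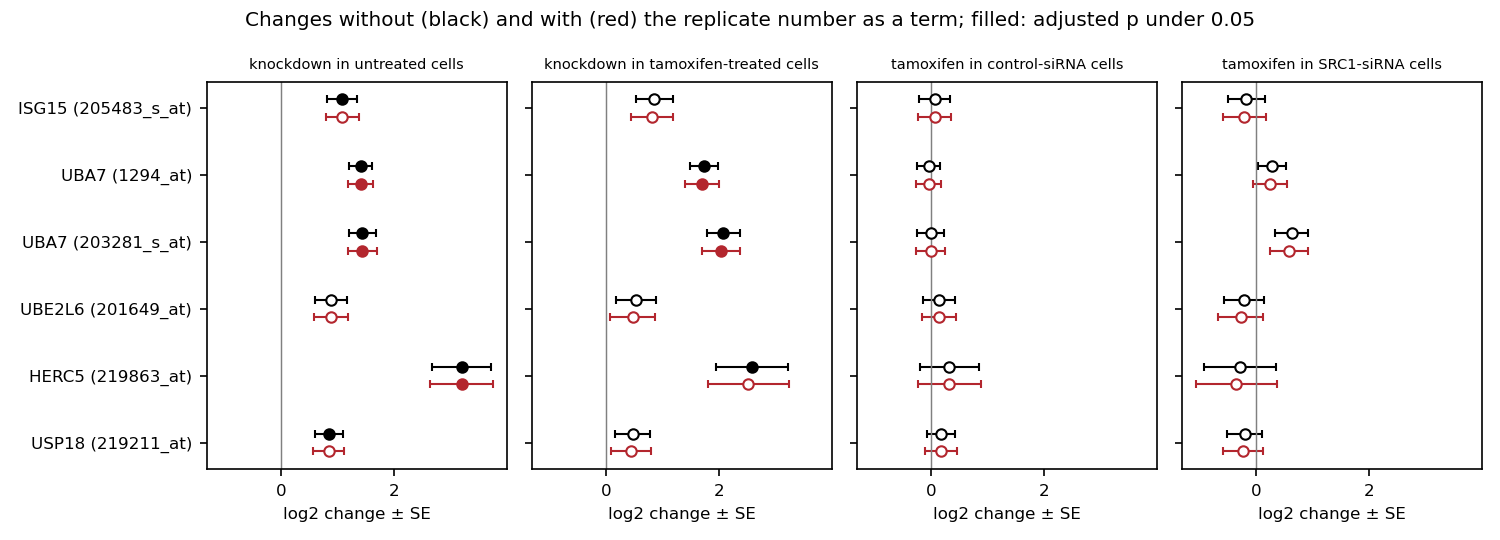
Log2 change ± SE from limma (horizontal axis) of each probe set for the knockdown and tamoxifen comparisons, without (black) and with (red) replicate number as a term. Filled points are changes past an adjusted p of 0.05. Filled points appear in the knockdown comparisons, at 3.20 for HERC5 without tamoxifen, and in none of the tamoxifen ones.

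The difference between same-numbered arrays separated the 5 genes into patterns that the group means do not show. For HERC5 the knockdown differences at numbers 1 to 4 without tamoxifen were 3.91, 1.88, 1.67 and 5.34. For ISG15 they were 1.12, 0.76, 0.11 and 2.35, for UBE2L6 0.55, 0.33, 0.16 and 2.50, and for USP18 0.98, 0.26, 0.08 and 2.06. Each of these 4 genes thus had its largest difference at number 4, the next at number 1 and the smallest at number 3. UBA7 ran otherwise, with 2.18, 1.54, 1.08 and 0.83 for 1294_at and 2.74, 1.33, 1.07 and 0.62 for 203281_s_at, so its largest difference was at number 1 and its smallest at number 4. A constant subtracted from all arrays of a number leaves these differences untouched. The comparison of UBA7 with the other genes is a description of 4 pairs and was not tested.

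With tamoxifen the same contrast existed at numbers 1 and 3 only. It was 3.42 and 1.38 for HERC5, 0.95 and 0.35 for ISG15, 0.67 and 0.21 for UBE2L6 and 0.67 and 0.00 for USP18. For UBA7 it was 2.32 and 1.24 with 1294_at and 2.22 and 1.89 with 203281_s_at. Number 1 exceeded number 3 for every probe set, in both treatments. All 6 probe sets were higher at all 6 pairs, as were 6.18% of all probe sets. The fall of NCOA1 at the same pairs was -0.80, -1.60, -2.00 and -0.79 without tamoxifen and -0.94 and -1.70 with it, so it was smallest at numbers 1 and 4, where the HERC5 difference was largest. Whether the degree of knockdown bears on the HERC5 difference was not tested.

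**Figure D3:**
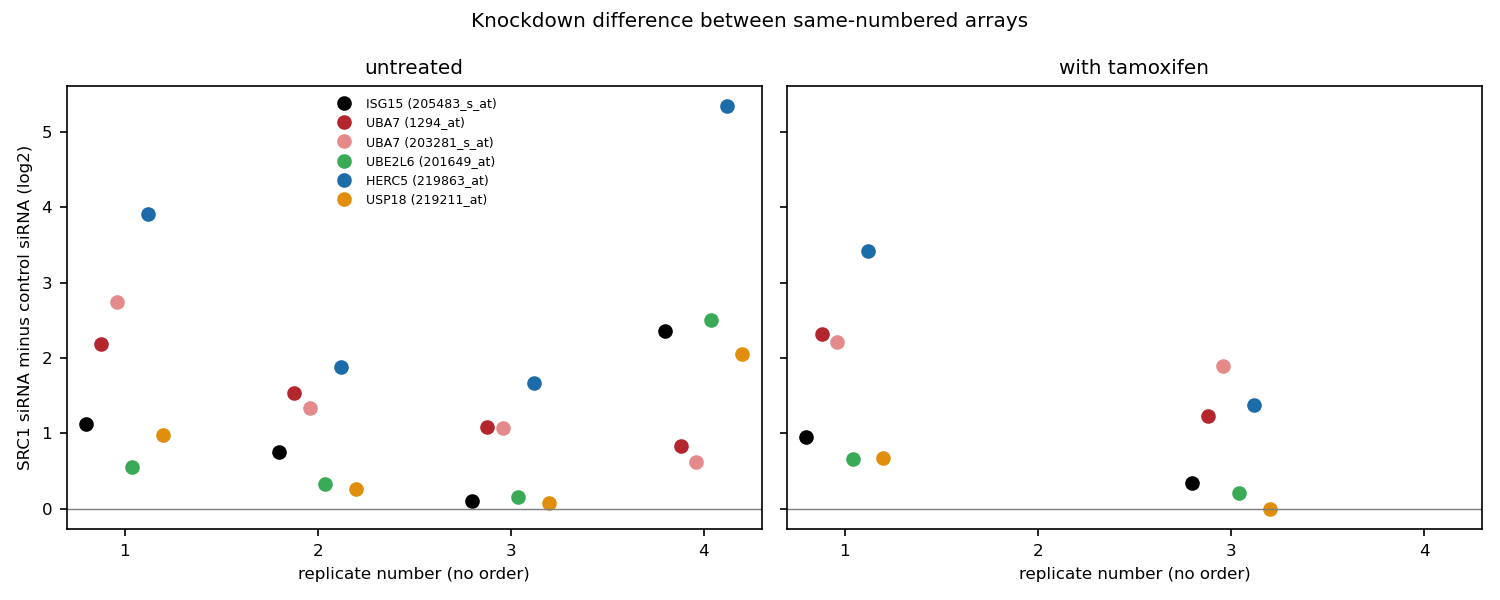
Knockdown difference in log2 signal (vertical axis) between same-numbered arrays, for replicate numbers 1 to 4 without tamoxifen and numbers 1 and 3 with it. At number 4 HERC5 reaches 5.34 and ISG15 2.35 while UBA7 (1294_at) is at its lowest, 0.83.

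Tamoxifen for 2 h moved none of the 5 genes past the threshold in control siRNA cells, where 0.163% of all probe sets passed (limma) and 15.7% had an unadjusted p under 0.05. None of the 6 probe sets was among the latter either in this fit. It leaves same-numbered arrays unpaired, so its SEs for tamoxifen can be too large. The untreated control arrays used here are also those of the knockdown comparison. The log2 changes were 0.06 ± 0.27 for ISG15, -0.05 ± 0.21 and -0.01 ± 0.24 for UBA7, 0.14 ± 0.29 for UBE2L6, 0.32 ± 0.52 for HERC5 and 0.17 ± 0.25 for USP18 (SE, 4 against 4 arrays; limma adjusted p 0.789 to 0.987). Between same-numbered arrays the picture was narrower for 2 genes. HERC5 was higher with tamoxifen at every number, by 0.38, 0.30, 0.22 and 0.39, and USP18 by 0.28, 0.10, 0.08 and 0.22. A rise at all 4 pairs was found for 9.87% of probe sets. In the fit of same-numbered arrays alone HERC5 differed by 0.32 ± 0.07 (SE), which did not pass (limma adjusted p = 0.404, the lowest over its alternatives, the highest being 0.986). ISG15, UBE2L6 and UBA7 moved both ways among the 4 pairs.

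In SRC1 siRNA cells tamoxifen again moved none of the 5 genes past the threshold, beside 1.51% of all probe sets (limma). ISG15 changed by -0.18 ± 0.33, UBA7 by 0.28 ± 0.25 and 0.63 ± 0.29, UBE2L6 by -0.22 ± 0.35, HERC5 by -0.30 ± 0.63 and USP18 by -0.20 ± 0.31 (SE, 2 against 4 arrays). Their limma adjusted p-values lay between 0.304, for UBA7 203281_s_at, and 0.863. The untreated group also held numbers 2 and 4, which the tamoxifen group lacked, so these changes and the interactions below compare unlike numbers. Number 4 was its highest array for ISG15, UBE2L6, HERC5 and USP18 and its lowest for UBA7. The mean difference at numbers 1 and 3 alone was 0.10 for ISG15, 0.0036 for UBE2L6, -0.09 for HERC5 and -0.02 for USP18. For UBA7 it was 0.09 with 1294_at and 0.34 with 203281_s_at. At numbers 1 and 3, the HERC5 differences were -0.11 and -0.07 and the USP18 differences -0.04 and -0.01. So both genes were higher with tamoxifen at each control pair and slightly lower at each SRC1 siRNA pair. The SRC1 siRNA side rests on 2 pairs, and the share of all probe sets with this combined pattern was not computed. The interaction itself, the change of the knockdown difference with tamoxifen, passed for none of the 6 probe sets, beside 0.280% of all. It was -0.62 ± 0.82 for HERC5 and -0.38 ± 0.40 for USP18 (SE; limma adjusted p = 0.735 and 0.663). For ISG15 it was -0.23 ± 0.42, for UBE2L6 -0.36 ± 0.45, and for UBA7 0.32 ± 0.33 and 0.64 ± 0.38 (SE; limma adjusted p 0.404 to 0.813).

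**Figure D4:**
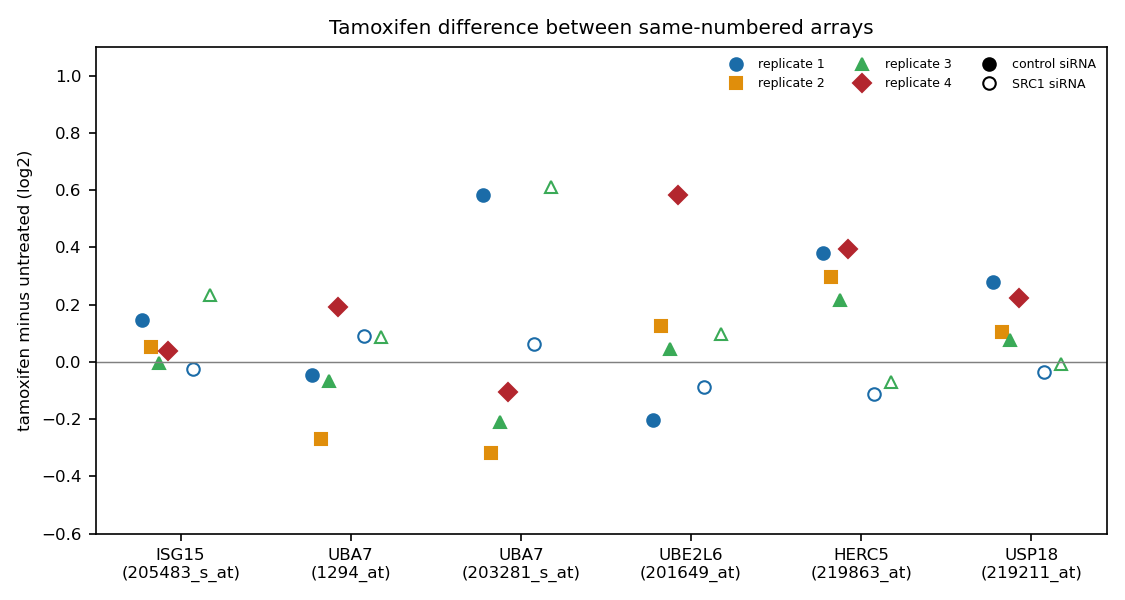
Difference in log2 signal between tamoxifen and vehicle (vertical axis) at each replicate number, for control siRNA (numbers 1 to 4) and SRC1 siRNA (numbers 1 and 3). HERC5 lies between 0.22 and 0.39 in the control cells and at -0.11 and -0.07 in the SRC1 siRNA cells.

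Other genes of the same biochemistry were described by 8 lists of 98 genes, 76 of them analysed here. Relatives outside the ISG15 pathway were read for knockdown in untreated cells, where 10.4% of all probe sets passed. Of 9 other ubiquitin-like modifiers, such as NEDD8 and SUMO3, 0 passed (limma; 0 at an unadjusted p under 0.05) and their changes spanned -0.08 to 0.09. Of 13 other E2 enzymes 0 passed (limma; 1 at an unadjusted p under 0.05), with changes of -0.18 to 0.15. Of 7 other E1 enzymes, with changes of -0.18 to 0.39, 1 was higher, UBA6, the second activating enzyme for ubiquitin (0.18 ± 0.05, SE; limma adjusted p = 0.0365, and 0.164 once replicate number was fitted too). Of 12 other USP proteases 1 was lower, USP48 (-0.35 ± 0.06, SE; limma adjusted p = 0.00198). A single gene of 7 or of 12 is near the share of all probe sets. The medians of these 4 lists lay between -0.06 and 0.02, beside -0.00 for all probe sets.

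Among 9 other ligases and proteases reported to act on ISG15, 0 were higher and 1 was lower, USP13 (-0.42 ± 0.09, SE; limma adjusted p = 0.00950), which is near the 10.4% of all probe sets that passed. TRIM25, a ligase that is itself interferon-induced, differed by 0.26 ± 0.13 (SE; limma adjusted p = 0.224) and ARIH1 by -0.00 ± 0.05 (SE). HERC6, the genomic neighbour and closest relative of HERC5 and the ISG15 ligase of mice, differed by 1.55 ± 0.69 (SE; limma adjusted p = 0.177). Its signals were 9.29 to 11.52 in control siRNA untreated and 11.60 to 14.46 in SRC1 siRNA untreated. At numbers 1 to 4 the HERC6 differences were 0.81, 0.14, 0.08 and 5.17, so most of its group difference came from number 4. The other, dim HERC6 probe set differed by 1.20, 0.08, 0.08 and 0.66, most at number 1. HERC5 at the same numbers never differed by less than 1.67. Of the 4 HERC ligases other than HERC5, HERC6 included, 0 passed (limma; 3 at an unadjusted p under 0.05).

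Signalling that leads to the 5 genes was measured for 9 of 11 listed genes, of which 3 were higher and 1 lower, beside 4.99% higher and 5.36% lower of all probe sets. IFNB1, the ligand interferon beta, rose from 5.88 ± 1.09 to 9.86 ± 1.06 (SD, n = 4 each), a log2 change of 3.98 ± 0.67 (SE; limma adjusted p = 0.00285, and 0.0168 once replicate number was fitted too). Its differences at numbers 1 to 4 were 6.45, 2.67, 1.76 and 5.04, so it was largest at numbers 1 and 4, as HERC5 was, but with number 1 first. IRF1, a transcription factor of interferon responses, rose by 1.17 ± 0.27 (SE; limma adjusted p = 0.0158, and 0.0515 with number fitted), with 2.35, 0.64, 0.55 and 1.13 by number. IRF7, which amplifies interferon production, rose by 0.88 ± 0.25 (SE; limma adjusted p = 0.0417, and 0.109 with number fitted), with 1.07, 0.29, 0.00 and 2.17 by number. The receptor subunit IFNAR1 fell by 0.30 ± 0.06 on the log2 scale (SE; limma adjusted p = 0.0109, and 0.0635 with number fitted). IRF9, the DNA-binding part of the factor that acts below the receptor, differed by 0.57 ± 0.22 (SE; limma adjusted p = 0.122) and by 0.25, 0.17, 0.17 and 1.68 at numbers 1 to 4. JAK1 and TYK2, the receptor's kinases, differed by -0.14 and -0.05 and did not pass.

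Of 18 proteins reported to carry ISG15, 2 were higher and 0 lower by their brightest probe sets. Of all probe sets 4.99% were higher and 5.36% lower, 10.4% in either direction. They were MX1, an antiviral GTPase (1.36 ± 0.15, SE; limma adjusted p = 0.000374), and IFIH1, the RNA sensor MDA5 (0.91 ± 0.27, SE; limma adjusted p = 0.0465). Once replicate number was fitted too, the adjusted p was 0.00602 for MX1 and 0.123 for IFIH1 (limma). MX1 read 4.42 in control siRNA untreated, near the median of all probe-set means (3.47), where differences can be compressed, as for UBA7. RIGI, the other RNA sensor, differed by 1.26 ± 0.40 (SE; limma adjusted p = 0.0651) and EIF2AK2, the kinase PKR, by 0.23 ± 0.11 (SE; limma adjusted p = 0.187). The largest changes of the list, of IFIT3 (1.97 ± 0.73, SE; limma adjusted p = 0.109) and IFIT1 (1.61 ± 0.74, SE; limma adjusted p = 0.194), did not pass. Another IFIT3 probe set, 204747_at, did pass (2.58 ± 0.56, SE; limma adjusted p = 0.0111). The median of the list was 0.15, beside -0.00 for all probe sets. With tamoxifen present, IFNB1 (3.74 ± 0.82, SE; limma adjusted p = 0.0115), IRF1 (1.19 ± 0.33, SE; limma adjusted p = 0.0322) and MX1 (1.09 ± 0.18, SE; limma adjusted p = 0.00283) passed again, and IRF7 and IFIH1 did not. Once replicate number was fitted too, MX1 kept its call there (0.0318, limma), while IFNB1 (0.0716, limma) and IRF1 (0.125, limma) did not.

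**Figure D5:**
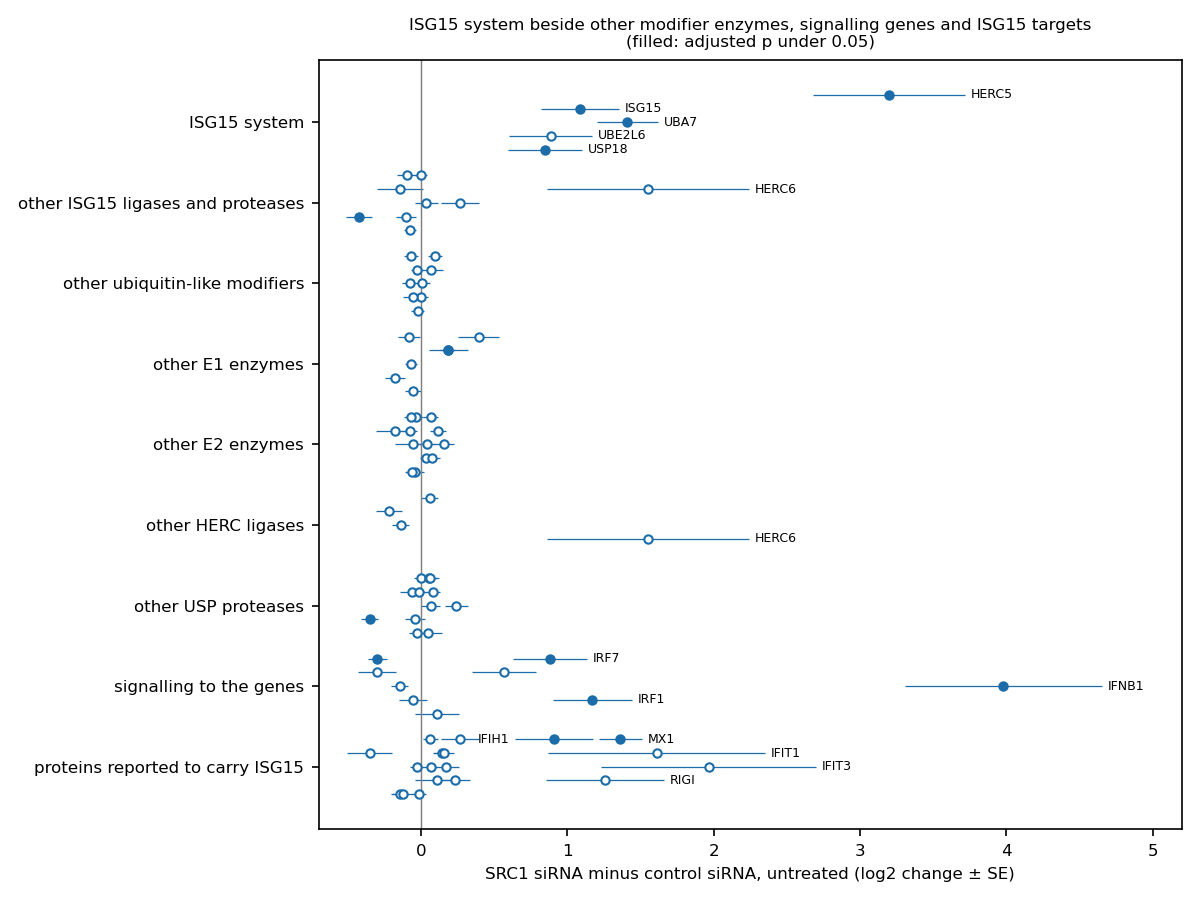
Log2 knockdown change without tamoxifen (horizontal axis) of every analysed gene of the ISG15 system and of the 8 other lists (vertical axis), with bars of ± SE and filled points past a limma adjusted p of 0.05. The modifier and E2 lists stay within -0.18 to 0.15, while IFNB1 stands at 3.98 and HERC5 at 3.20.

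The genes with the nearest profiles were found for each member by the root-mean-square difference of log2 signals over the 14 arrays, after centring each profile on its own mean. The arrays share groups and replicate numbers, so nearness describes those as much as the genes. ISG15 lay nearest PARP9 (0.110), SHFL (0.127) and SP100 (0.134), on a scale where its own root-mean-square spread was 0.617. UBE2L6 (own spread 0.544) lay nearest CMPK2 (0.127), TAP2 (0.154) and SHFL (0.163), and USP18 (own spread 0.495) nearest TRIM14 (0.0934), TAP2 (0.0953) and IFIH1 (0.0977). HERC5 (own spread 1.63) lay nearest OASL (0.204), CXCL8 (0.285) and IFIT3 at 204747_at (0.304). UBA7 with 1294_at (own spread 0.811) lay nearest HLA-B (0.108), SAR1A (0.116) and WARS1 (0.133). The HLA-B probe set, 208729_x_at, belongs to a family of near-identical genes, so its gene is uncertain.

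Since the neighbours were chosen on the same arrays, a like pattern by replicate number follows from the choice. HLA-B differed with knockdown by 2.52, 1.80, 1.07 and 0.82 at numbers 1 to 4, and PARP9 by 1.47, 0.53, 0.22 and 2.42. The order was not the member's throughout: CMPK2 differed by 0.56, 0.12, 0.15 and 2.57, least at number 2, where UBE2L6 was least at number 3. Among the 5 genes themselves UBE2L6 and USP18 were closest (0.152), then ISG15 and USP18 (0.176) and ISG15 and UBE2L6 (0.204). UBA7 stood 0.589 to 0.695 from these 3, and HERC5, whose changes were larger, 1.05 to 1.18 from the other 4 genes.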

How the data were processed

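The authors deposited 1 table of log2 expression values for 54675 probe sets (the base is inferred from their range), with quartiles nearly equal across arrays. R 2.9.2 is named per the submitters' processing notes. Background correction, normalization and summary were not given in the sources used here. The 62 array controls were left out. Values were used as deposited. limma 3.58.1 (R 4.3.3) fitted 4 group means to all 14 arrays, with two-sided tests and Benjamini-Hochberg adjustment over 54613 probe sets (threshold 0.05). The fit was tested on simulated data with independent arrays. That test cannot speak to the SEs here, where same-numbered arrays deviated in opposite directions. The number of arrays limits the precision.

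Gene names came from the platform annotation, which can be old: 41091 probe sets had 1 gene, 1801 several and 11721 none. A gene with several probe sets was represented by that with the highest mean. Of each list up to 3 genes with the largest change that passed, fixed relatives and signalling genes, and the 3 nearest profiles per member were named. Other list genes were named, after their values were seen, to describe their lists. The members and lists were chosen with earlier results of these data known. Exact permutation tests enumerated all regroupings. Promoters came from RefSeq (GRCh38.p14).

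Alternatives were the replicate number as a term, quantile normalization, median centring, leaving out dim probe sets, a trended robust variance, array weights, fewer groups and each array or number left out. Pairing same-numbered arrays and using only numbers 1 and 3 were chosen after seeing the data.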

Additional observations from a re-analysis of the deposited data

Results flagged for a closer look

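In 18 sets of 4 control or SRC1 siRNA arrays examined for the 6 probe sets, 2 held an array that stood apart by Dixon's criterion, where chance gives about 1 in 20. UBA7 203281_s_at read 3.11 in control siRNA untreated replicate 1, against 3.93 in the nearest of the other arrays (ratio 0.843). UBE2L6 read 10.00 in control siRNA untreated replicate 4, against 11.12 in the nearest (ratio 0.888).

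HERC5 and USP18 were higher with tamoxifen at each of the 4 control siRNA pairs and slightly lower at both SRC1 siRNA pairs. How many of all probe sets share this pattern was not computed. The tested interaction was -0.62 for HERC5 (limma adjusted p = 0.735) and -0.38 for USP18 (limma adjusted p = 0.663), so neither difference passed.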

How the results depend on the processing

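Of 326 knockdown changes of the 6 probe sets under alternatives, 288 kept direction and side of the threshold, 37 lost the call, 1 gained it and 0 reversed. Counts of passing probe sets fell from 5653 to 706 with only numbers 1 and 3 and ranged from 1953 to 5750 with arrays left out for knockdown without tamoxifen. With tamoxifen the count fell from 7350 to 4025 with only the arrays compared and 1146 with numbers 1 and 3, with 1183 to 7215 when arrays were left out. For tamoxifen in control cells (89) it was 35 with median centring, 232 with array weights, 2 with only the arrays compared, 1 with numbers 1 and 3 and 0 to 68 with arrays left out. For tamoxifen in SRC1 siRNA cells (824) it was 246 without dim probe sets, 371 with array weights, 109 with only the arrays compared, 0 with numbers 1 and 3 and 3 to 879 with arrays left out. For the interaction (153) it was 23 without dim probe sets, 0 with numbers 1 and 3 and 0 to 346 with arrays left out. The lowest counts came without all arrays of number 2 (1953, control 0 and interaction 0), number 1 (1183) or number 3 (0 for control), without number 4 (interaction 0), and without SRC1 siRNA tamoxifen replicate 1 (3). Median centring moved the share of calls that were higher from 60.0% to 45.4% for tamoxifen in SRC1 siRNA cells and from 47.7% to 36.2% for the interaction. Fits of fewer arrays have fewer samples, and the other causes were not tested. Signal near background limits both UBA7 probe sets, whose control levels lie close to the median of all probe sets.

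Over all probe sets the replicate numbers did not pair the arrays by their deviations (correlations all under 0, median -0.334; F of the number at a median of 0.0428 against 0.871 for unrelated arrays). With the replicate block the counts were 2154, 1224, 1, 0 and 0 in the order above. In same-numbered arrays alone with the block they were 1027 and 181 for knockdown and 0 and 1 for tamoxifen. With the term HERC5 and UBA7 kept their calls without tamoxifen, ISG15 and USP18 did not, and with tamoxifen UBA7 did and HERC5 did not.

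Reversals were confined to tamoxifen and interaction values that did not pass. UBA7 203281_s_at in control cells was 0.0036 with quantile normalization and 0.19 with numbers 1 and 3, where UBE2L6 was -0.079. In SRC1 siRNA cells ISG15 was 0.10 and UBE2L6 0.0036, in same-numbered pairs with the block and with numbers 1 and 3. With numbers 1 and 3 the interaction was 0.033 for ISG15 and 0.083 for UBE2L6. With arrays left out, control-cell changes ranged from -0.12 to 0.24 for ISG15, -0.16 to 0.061 and -0.23 to 0.089 for UBA7, -0.16 to 0.28 for UBE2L6, -0.035 to 0.65 for HERC5 and -0.011 to 0.34 for USP18. In SRC1 siRNA cells they ranged from -0.34 to 0.067 for ISG15, -0.34 to 0.022 for UBE2L6, -0.73 to 0.14 for HERC5 and -0.36 to 0.017 for USP18. Interactions ranged from -0.42 to 0.0085 for ISG15 and -0.54 to 0.033 for UBE2L6. The cause was not tested.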
